A study of Homo sapiens with 6 samples.

Results

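The genes described here are 47 human genes of the type I interferon response: the receptor chains, the transcription factors that act below them, the sensors that start the response, and a set of genes that interferon switches on. They were taken from a fixed list and found by Ensembl identifier in tables of 30099 genes, where 46 of the 47 were listed (RIGI under its older GENCODE name DDX58). The RNA level of CMPK2 was not analysed here, but its listed promoters are counted in the motif shares over 37 genes. RNA from cells labelled Pep2-E3, which have the MDA-MB-231 background and the genotype label Pep-E3, was compared with RNA from MDA-MB-231, a long-cultured line of human triple-negative breast cancer whose libraries are labelled as the control. There were 3 libraries per group, and no treatment, time point or interferon dose is given for either group. The labels state neither what Pep-E3 stands for nor whether Pep2-E3 is 1 clone, and no label ties the replicates to separate cultures. The p-values therefore rest on variation among libraries that may be technical only.

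Type I interferons bind a receptor built from the chains IFNAR1 and IFNAR2. The receptor's kinases activate STAT proteins, and a complex that holds STAT2 and IRF9 binds interferon-stimulated response elements in the promoters of its targets, the interferon-stimulated genes. The RIG-I-like receptors RIGI, IFIH1 and DHX58 recognise double-stranded RNA in the cytosol. Through MAVS, TBK1 and the factor IRF3, RIGI and IFIH1 lead to interferon production, and DHX58 modulates them. Many of these sensors and factors are themselves interferon-stimulated, and cancer cell lines often express part of the set with no added interferon.

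Promoter sequences are shown because many of the genes share a response element there. RefSeq's table (GRCh38.p14) lists a promoter, from 250 bases before to 50 bases after a start site, for 37 of the 47 genes. The core of the interferon-stimulated response element, searched as GAAA, any 2 bases and GAAA again on either strand, was present in a listed promoter of 23 of these 37 genes (62.16%), against 4.376% of all 27305 symbols in the table counted the same way. The 160 bases before the start site are printed for 6 genes, each on its gene's strand, with this core or its reverse complement in capitals. DDX60, IFIT1 and PARP14 were lower in Pep2-E3, OAS3 and GBP1 were higher, and ISG15 did not pass the test, so that the same letters can be compared across all outcomes.
DDX60 (chr4:168318753-168318912, minus strand): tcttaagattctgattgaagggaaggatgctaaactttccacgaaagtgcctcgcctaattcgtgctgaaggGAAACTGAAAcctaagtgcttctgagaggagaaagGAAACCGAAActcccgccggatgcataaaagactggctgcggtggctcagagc
IFIT1 (chr10:89392463-89392622, plus strand): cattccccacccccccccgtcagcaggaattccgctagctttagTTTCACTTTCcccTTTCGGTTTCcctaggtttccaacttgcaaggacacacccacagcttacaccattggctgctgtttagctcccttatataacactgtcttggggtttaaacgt
PARP14 (chr3:122680679-122680838, plus strand): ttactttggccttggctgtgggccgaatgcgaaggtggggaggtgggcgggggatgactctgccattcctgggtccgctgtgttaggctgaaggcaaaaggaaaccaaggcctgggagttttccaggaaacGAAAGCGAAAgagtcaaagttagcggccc
OAS3 (chr12:112938314-112938473, plus strand): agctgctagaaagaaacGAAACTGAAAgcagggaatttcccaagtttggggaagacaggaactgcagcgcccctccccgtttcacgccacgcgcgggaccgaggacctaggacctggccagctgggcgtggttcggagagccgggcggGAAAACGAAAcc
GBP1 (chr1:89065209-89065368, minus strand): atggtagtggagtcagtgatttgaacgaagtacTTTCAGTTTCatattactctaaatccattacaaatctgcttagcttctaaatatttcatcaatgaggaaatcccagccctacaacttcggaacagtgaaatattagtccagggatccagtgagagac
ISG15 (chr1:1013337-1013496, plus strand): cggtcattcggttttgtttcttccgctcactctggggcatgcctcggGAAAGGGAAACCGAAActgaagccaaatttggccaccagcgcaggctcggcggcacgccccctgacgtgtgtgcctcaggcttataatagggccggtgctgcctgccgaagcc
In ISG15, 2 matches overlap and make 1 longer run of capitals.

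Levels are in FPKM (fragments per kilobase of exon, scaled to the size of a library), and they resolve into 17154511 to 18206694 whole fragments per library, so that depth differed by at most 1.06 times. Of the line's usual markers, VIM averaged 158 FPKM in Pep2-E3 and 174 in MDA-MB-231, and CD44 62.4 FPKM in Pep2-E3 and 63.3 in MDA-MB-231, while, of 6 genes listed as low in the line, ESR1, PGR and CDH1 averaged at most 0.161 FPKM in either group. The other 3 of those genes were not low: ERBB2 averaged 11.4 FPKM in Pep2-E3 and 11.7 in MDA-MB-231, EPCAM 2.32 in Pep2-E3 and 2.71 in MDA-MB-231, and CLDN3 3.50 in Pep2-E3 and 5.91 in MDA-MB-231 (called lower). SPARC, a mesenchymal gene listed as high in the line, was close to 0, at 0.0721 FPKM in Pep2-E3 and 0.177 in MDA-MB-231. KISS1, also listed as high, averaged 84.1 FPKM in Pep2-E3 and 158 in MDA-MB-231 (called lower). TGFBI, listed with them, averaged 6.87 FPKM in Pep2-E3 and 4.16 in MDA-MB-231 (called higher). The 3 leukocyte markers in the tables (PTPRC, CD14 and LYZ) summed to 0.0740 to 0.199 FPKM per library in Pep2-E3 and 0.215 to 0.370 in MDA-MB-231, with LYZ at 0 in 5 of 6 libraries. The 4 luminal breast markers summed to 93.1 to 103 FPKM in Pep2-E3 and 99.6 to 105 in MDA-MB-231, nearly all of it KRT19. GATA3 averaged 2.10 FPKM in Pep2-E3 and 0.846 in MDA-MB-231 (called higher). The part of these markers in the results was not tested. Pep2-E3 replicate 1 stood further from the other libraries of its group than any other library did (root mean square distance 0.308 on the log2 scale, against 0.194 to 0.252 for the rest), and its deviations ran with the GC content of transcripts (r = 0.49 across tested genes, which are not independent). For Pep2-E3 replicates 2 and 3 this correlation was -0.20 and -0.42, and in MDA-MB-231 it ran from -0.09 to 0.09. Each library was measured against the others of its group, so the values within a group are linked. In bulk RNA, fewer cells expressing a gene and less RNA per cell cannot be told apart.

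The interferon set did not move as a block: 9 of the 38 genes tested rose in Pep2-E3 and 10 fell. Without Pep2-E3 replicate 1, 10 rose and 9 fell, beside 2302 higher and 2555 lower of all 14320 genes then tested. With all libraries, 30.8% of all 14235 genes tested were called (14.6% higher and 16.2% lower). Among the 38 interferon genes 23.7% were higher and 26.3% lower, a larger share in each direction. The list was chosen with earlier results of these data known, so the larger share only describes this list. The median log2 fold change of the 38 was -0.005, against -0.02 over all tested genes, while the median size regardless of sign was 0.23 against 0.19. The tested genes are those with a mean of at least 0.5 FPKM over the 6 libraries, and a call is a Benjamini-Hochberg adjusted p under 0.05, over all tested genes, in limma's trend test on log2(FPKM + 1). Fold changes are on that scale, which understates the change of low genes, and folds are ratios of mean FPKM. The other 8 genes lay under the filter and are described further on.

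**Figure D1:**
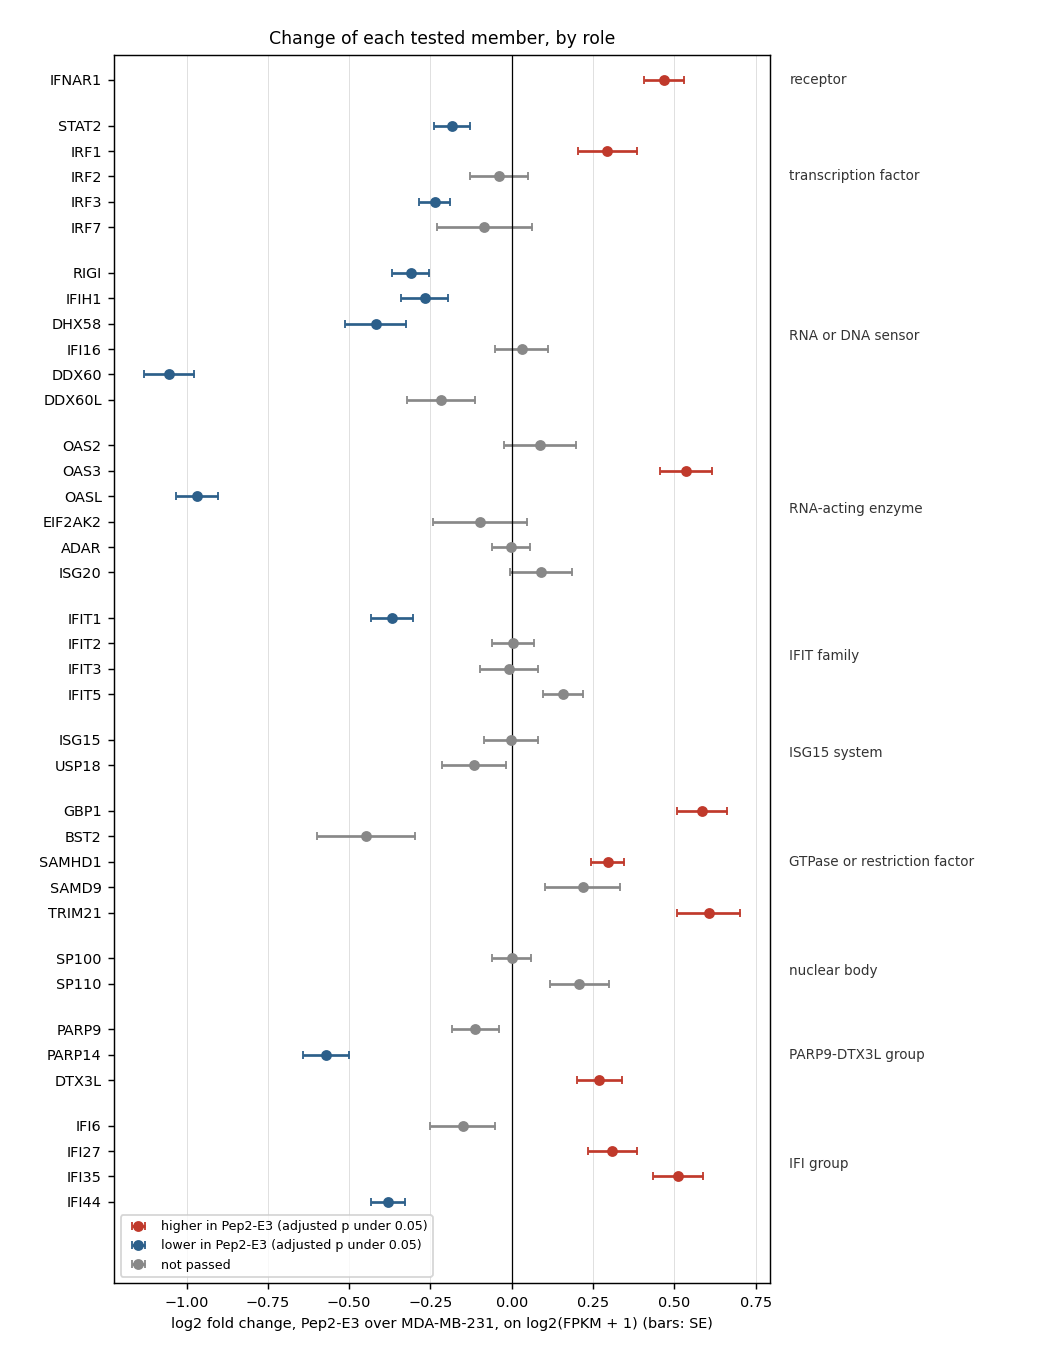
Log2 fold change of each of the 38 tested genes, Pep2-E3 over MDA-MB-231, on log2(FPKM + 1), grouped by role. Points are fitted values and bars their SE, with 3 libraries per group. The 9 genes that rose and the 10 that fell lie in several roles, from -1.05 in DDX60 to 0.61 in TRIM21. Of the 6 genes grouped as sensors 4 fell and none rose, and of 5 GTPases or restriction factors 3 rose and none fell. OAS3, which rose, is grouped with enzymes acting on RNA, and the sensor CGAS, which also rose, is not shown. Over all tested genes, 16.2% fell and 14.6% rose.

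The receptor chain IFNAR1 was higher in Pep2-E3. It had 6.92, 7.74 and 7.64 FPKM in Pep2-E3, against 5.16, 5.20 and 4.90 in MDA-MB-231, a 1.46-fold difference with no overlap between the groups (log2 fold change 0.47 ± 0.06, SE; adjusted p = 0.00276). Its partner IFNAR2 was listed at almost nothing, with 0, 2 and 1 fragments in Pep2-E3 and 2, 5 and 3 in MDA-MB-231. However, 44.2% of IFNAR2's exon bases overlap AP000295.1, a gene on the same strand, and 39.1% overlap IL10RB-DT on the opposite strand, and how fragments in such overlaps were counted is not given in the sources used here. Whether the low IFNAR2 value reflects the RNA was not tested.

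Among the transcription factors, the interferon signalling factor STAT2 and the sensor-activated factor IRF3 fell and IRF1 rose. IRF3 had 15.7, 15.9 and 16.1 FPKM in Pep2-E3 and 18.3, 18.7 and 19.7 in MDA-MB-231, and the groups did not overlap (-0.24 ± 0.05, adjusted p = 0.0121). STAT2 had 10.9, 10.1 and 10.1 FPKM in Pep2-E3 and 11.5, 12.2 and 12.05 in MDA-MB-231 (1.15-fold lower, -0.18 ± 0.05, adjusted p = 0.0432). IRF1, a factor that also binds response elements, had 1.23, 1.18 and 1.46 FPKM in Pep2-E3 and 0.756, 0.880 and 0.958 in MDA-MB-231 (1.49-fold, 0.29 ± 0.09, adjusted p = 0.0478). Neither gene overlapped between the groups. The calls of STAT2 and IRF1 are near the threshold and were lost under 9 and 10 of 18 alternative settings. Of the exon bases of IRF1 and IRF3, 22.0% in IRF1 and 19.3% in IRF3 overlap C5orf56 and BCL2L12 on the opposite strand, and the library kit does not mark strand. IRF2, which mainly represses the same elements, and IRF7, which amplifies interferon production, did not pass. IRF7 had 2.57 to 2.84 FPKM in Pep2-E3, inside the wider range of 2.14 to 3.75 in MDA-MB-231.

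Of the 6 genes grouped here as sensors, 4 fell in Pep2-E3 and none rose, and all 3 RIG-I-like receptors were among those that fell (over all tested genes, 16.2% fell and 14.6% rose). The count depends on the grouping. OAS3, which rose, and EIF2AK2, which did not pass, also respond to double-stranded RNA but are grouped with enzymes acting on RNA. The DNA sensor CGAS, which rose, is on a companion list of further pathway genes. RIGI itself had 10.96, 11.8 and 11.6 FPKM in Pep2-E3, against 15.1, 14.4 and 13.8 in MDA-MB-231 (log2 fold change -0.31 ± 0.06, adjusted p = 0.00808). IFIH1, which encodes the long double-stranded RNA sensor MDA5, had 1.21, 1.15 and 1.28 FPKM in Pep2-E3 and 1.77, 1.63 and 1.60 in MDA-MB-231 (-0.27 ± 0.07, adjusted p = 0.0326). DHX58, whose product LGP2 modulates the other receptors, had 1.59, 1.54 and 1.17 FPKM in Pep2-E3 and 2.36, 2.07 and 2.28 in MDA-MB-231 (-0.42 ± 0.09, adjusted p = 0.0169). In each of these genes every Pep2-E3 library lay below every MDA-MB-231 library. RIGI was called under all 18 alternative settings, DHX58 under 15 and IFIH1 under 9. DDX60, a helicase induced by interferon that has been described as a cofactor of RIG-I, showed the largest fall in log2 fold change among the 38 tested genes. It had 3.57, 2.98 and 3.69 FPKM in Pep2-E3 and 8.14, 8.36 and 7.91 in MDA-MB-231, 2.39-fold lower (-1.05 ± 0.08, adjusted p = 0.000445). Its neighbour and paralogue DDX60L, with 1.37 to 1.89 FPKM in Pep2-E3 and 1.82 to 2.31 in MDA-MB-231, overlapped between the groups and did not pass (-0.22 ± 0.10, adjusted p = 0.158). Nor did IFI16, a sensor of DNA, with 13.1 to 16.2 FPKM in Pep2-E3 and 14.1 to 15.0 in MDA-MB-231.

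The OAS family, enzymes that make the 2-5A messenger when they meet double-stranded RNA, split. OAS3 rose, with 3.42, 2.93 and 3.51 FPKM in Pep2-E3 against 2.08, 1.85 and 1.93 in MDA-MB-231 (1.68-fold, 0.54 ± 0.08, adjusted p = 0.00396). OASL, a family member without that enzyme activity that acts with RIG-I, fell, with 2.73, 2.45 and 2.37 FPKM in Pep2-E3 against 6.04, 5.81 and 5.76 in MDA-MB-231 (2.33-fold lower, -0.97 ± 0.06, adjusted p = 0.000327). Neither gene's groups overlapped. OAS2 had 1.41 to 1.71 FPKM in Pep2-E3 and 1.06 to 1.59 in MDA-MB-231, overlapped between the groups and did not pass (adjusted p = 0.592). OAS1 was under the filter, with 7, 2 and 5 fragments in Pep2-E3 and 11, 10 and 24 in MDA-MB-231. The other genes acting on RNA did not pass: the kinase EIF2AK2 (PKR), which halts translation on sensing double-stranded RNA, the editing enzyme ADAR, and the exonuclease ISG20. EIF2AK2 was spread widely in Pep2-E3, with 6.44 FPKM in replicate 1 and 9.08 and 10.3 in replicates 2 and 3, around the 8.82 to 9.32 of MDA-MB-231. ADAR averaged 24.6 FPKM in both groups, with an SD of 1.73 in Pep2-E3 and 0.157 in MDA-MB-231.

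Of the 4 IFIT genes, which encode proteins that bind viral RNA ends, IFIT1 alone passed, and it fell. It had 8.19, 8.56 and 8.25 FPKM in Pep2-E3 and 11.1, 10.2 and 11.8 in MDA-MB-231, with no overlap (-0.37 ± 0.06, adjusted p = 0.00716). IFIT2 averaged 13.7 FPKM in both groups and IFIT3 32.4 ± 3.15 in Pep2-E3 and 32.6 ± 2.68 FPKM in MDA-MB-231 (SD, n = 3 each). IFIT5 was a little higher in Pep2-E3 (7.72 to 8.81 FPKM) than in MDA-MB-231 (7.19 to 7.46) without passing (0.16 ± 0.06, adjusted p = 0.0943), and it passed under 5 of 18 alternative settings, among them without Pep2-E3 replicate 1. A difference between IFIT1 and the other IFIT genes was not tested as such.

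ISG15, a ubiquitin-like modifier and the most abundant gene of the set, had 104, 97.9 and 86.7 FPKM in Pep2-E3 and 92.5, 91.8 and 105 in MDA-MB-231, and the groups overlapped, with Pep2-E3 replicate 3 the lowest library (adjusted p = 0.988). USP18, the protease that removes ISG15 and restrains the receptor, averaged 0.674 ± 0.123 FPKM in Pep2-E3 and 0.811 ± 0.0990 in MDA-MB-231 (SD, n = 3 each; limma adjusted p = 0.410), and 23.4% of all stretches of 50 bases in USP18 recur in other genes, mostly USP41. Of the enzymes that attach ISG15, fixed on a companion list, the conjugating enzyme UBE2L6 and the ligase HERC5 fell. HERC5 had 6.16, 7.14 and 7.96 FPKM in Pep2-E3 and 9.97, 10.1 and 11.03 in MDA-MB-231 (-0.50 ± 0.09, adjusted p = 0.00841), and UBE2L6 averaged 8.13 ± 0.574 FPKM in Pep2-E3 and 9.81 ± 0.267 in MDA-MB-231 (SD, n = 3 each; limma adjusted p = 0.0268). The activating enzyme UBA7 did not pass (-0.08 ± 0.08).

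Several restriction factors rose. The guanylate-binding GTPase GBP1 had 10.3, 9.62 and 11.3 FPKM in Pep2-E3 and 7.09, 6.17 and 6.57 in MDA-MB-231 (1.58-fold, 0.58 ± 0.08, adjusted p = 0.00271). TRIM21, a ubiquitin ligase that binds antibody-coated virus, had 8.79, 7.02 and 7.25 FPKM in Pep2-E3 and 5.11, 4.70 and 4.29 in MDA-MB-231 (1.64-fold, 0.61 ± 0.10, adjusted p = 0.00517). SAMHD1, which hydrolyses deoxynucleotides, had 8.86, 8.77 and 8.97 FPKM in Pep2-E3 and 6.89, 7.31 and 6.93 in MDA-MB-231 (0.30 ± 0.05, adjusted p = 0.00689). In all 3 genes the groups did not overlap, and all 3 were called under all 18 alternatives. Of such stretches in GBP1, 13.3% recur in other genes, mostly GBP1P1, a pseudogene with at most 1 fragment in any library, and 10.3% of the exon bases of SAMHD1 overlap TLDC2 on the opposite strand. BST2 (tetherin), which holds budding virus at the cell surface, pointed the other way, with 0.365, 0.569 and 0.625 FPKM in Pep2-E3 and 0.984, 1.52 and 0.764 in MDA-MB-231. The groups did not overlap but the MDA-MB-231 libraries lay far apart, and BST2 did not pass (-0.45 ± 0.15, adjusted p = 0.0640). SAMD9, an antiviral factor, had 4.98 FPKM in Pep2-E3 replicate 1 and 6.84 and 6.99 in replicates 2 and 3, against 5.04 to 5.32 in MDA-MB-231. It did not pass with all libraries (adjusted p = 0.193) and passed without Pep2-E3 replicate 1 (0.35, adjusted p = 0.00423).

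**Figure D2:**
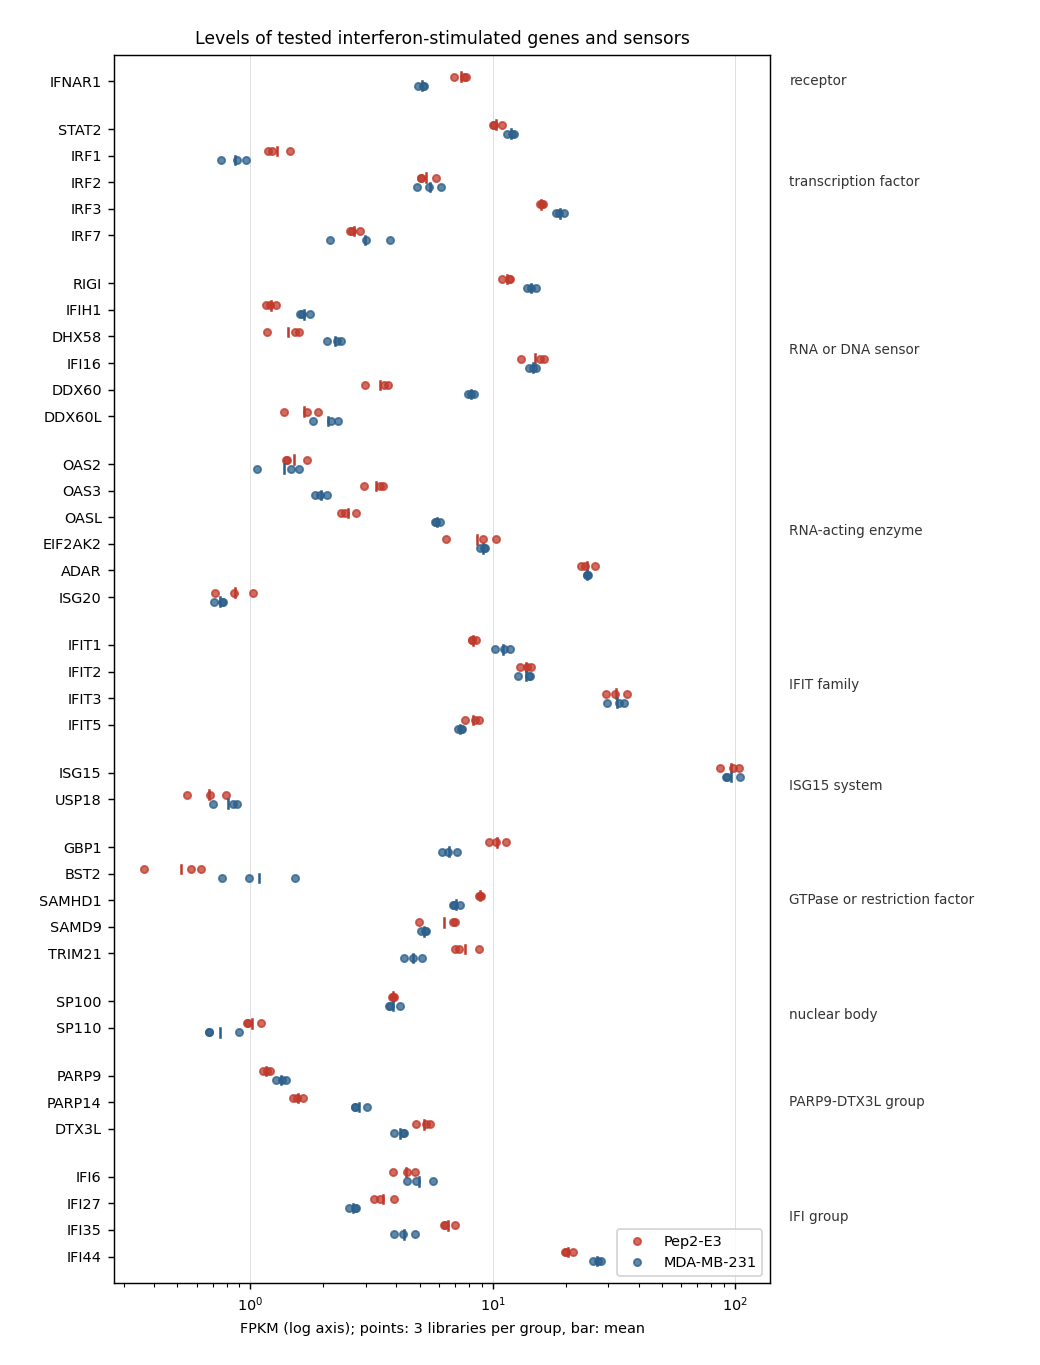
FPKM of the 38 tested genes on a log axis, in Pep2-E3 (red, upper row of each gene) and MDA-MB-231 (blue, lower row). Points are single libraries, 3 per group, and bars the means. ISG15, near 96.3 FPKM in both groups, is the highest gene, and USP18, with 0.674 FPKM in Pep2-E3 and 0.811 in MDA-MB-231, is the lowest by its mean over both groups.

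In the cluster of PARP9, DTX3L and PARP14, 1 gene rose and 1 fell. PARP9, DTX3L and PARP14 lie within 202917 bases of chromosome 3 (GRCh38, 122527924 to 122730840), and PARP9 and the ubiquitin ligase DTX3L, whose products form a complex, are transcribed away from each other. The ADP-ribosyltransferase PARP14 fell, with 1.56, 1.49 and 1.64 FPKM in Pep2-E3 and 3.03, 2.71 and 2.71 in MDA-MB-231 (1.80-fold lower, -0.57 ± 0.07, adjusted p = 0.00219). DTX3L rose, with 5.53, 4.82 and 5.29 FPKM in Pep2-E3 and 4.26, 3.91 and 4.29 in MDA-MB-231 (0.27 ± 0.07, adjusted p = 0.0256), a call kept under 13 of 18 alternatives. PARP9 averaged 1.16 ± 0.0369 FPKM in Pep2-E3 and 1.34 ± 0.0636 in MDA-MB-231 (SD, n = 3 each) and did not pass (limma adjusted p = 0.284). SP100 and SP110, of the nuclear bodies, lie near each other on chromosome 2 and neither passed, with SP100 at 3.87 FPKM in both groups and SP110 at 1.02 ± 0.0756 in Pep2-E3 and 0.748 ± 0.129 FPKM in MDA-MB-231 (SD, n = 3 each; limma adjusted p = 0.130). SP110 did not overlap between the groups and passed under 2 of 17 alternative settings. Of its exon bases, 20.9% overlap AC009950.1 on the opposite strand.

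The genes named for their induction by interferon also split. IFI35, a leucine zipper protein, had 6.97, 6.36 and 6.32 FPKM in Pep2-E3 and 3.91, 4.76 and 4.25 in MDA-MB-231 (1.52-fold, 0.51 ± 0.08, adjusted p = 0.00442). IFI27, a small mitochondrial membrane protein, had 3.92, 3.25 and 3.43 FPKM in Pep2-E3 and 2.72, 2.54 and 2.69 in MDA-MB-231 (0.31 ± 0.08, adjusted p = 0.0226). IFI44, a cytoplasmic protein, fell, with 20.0, 21.5 and 20.1 FPKM in Pep2-E3 and 27.1, 25.9 and 27.9 in MDA-MB-231 (-0.38 ± 0.05, adjusted p = 0.00323). None of these 3 genes overlapped between the groups. IFI6, an inhibitor of cell death, averaged 4.37 ± 0.457 FPKM in Pep2-E3 and 4.97 ± 0.628 in MDA-MB-231 (SD, n = 3 each) and did not pass (limma adjusted p = 0.292).

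Of the 8 genes under the filter, 3 held enough fragments to be read. The dynamin-like GTPase MX1, a classical marker of the interferon response, had 89, 93 and 88 fragments in Pep2-E3 and 36, 28 and 45 in MDA-MB-231, or 0.607 ± 0.0152 FPKM in Pep2-E3 and 0.235 ± 0.0598 in MDA-MB-231 (SD, n = 3 each). In limma-voom on the recovered fragments of the 14942 genes with a mean of at least 10 fragments, an alternative chosen after seeing the data in which 35.0% of genes were called (15.9% higher and 19.1% lower), MX1 was higher in Pep2-E3 (log2 fold change 1.39 ± 0.20, adjusted p = 0.000916). IFI44L, the neighbour of IFI44, had 12, 10 and 16 fragments in Pep2-E3 and 25, 29 and 33 in MDA-MB-231 and was lower in that fit (-1.12 ± 0.29, adjusted p = 0.0158). IRF9, the DNA-binding partner of STAT2, had 12, 15 and 16 fragments in Pep2-E3 and 32, 24 and 25 in MDA-MB-231 and was lower too (-0.83 ± 0.27, adjusted p = 0.0410). In limma's trend test with no filter, MX1 was called as well (adjusted p = 0.0188). IFI44L (adjusted p = 0.0777) and IRF9 (adjusted p = 0.0861) were not called there. All stretches of 50 bases in IRF9 recur in other genes, mostly AL136295.5, an overlapping gene on the same strand with 11, 11 and 6 fragments in Pep2-E3 and 20, 17 and 17 in MDA-MB-231, so IRF9's level is uncertain. MX2, the other MX GTPase, had 7, 3 and 7 fragments in Pep2-E3 and 0, 2 and 3 in MDA-MB-231. RSAD2 (viperin), an antiviral enzyme, had 3, 0 and 1 in Pep2-E3 and 0, 1 and 5 in MDA-MB-231, and XAF1, a proapoptotic factor, had 13, 6 and 3 in Pep2-E3 and 8, 7 and 4 in MDA-MB-231. At these counts no difference in MX2, RSAD2 or XAF1 was detectable.

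**Figure D3:**
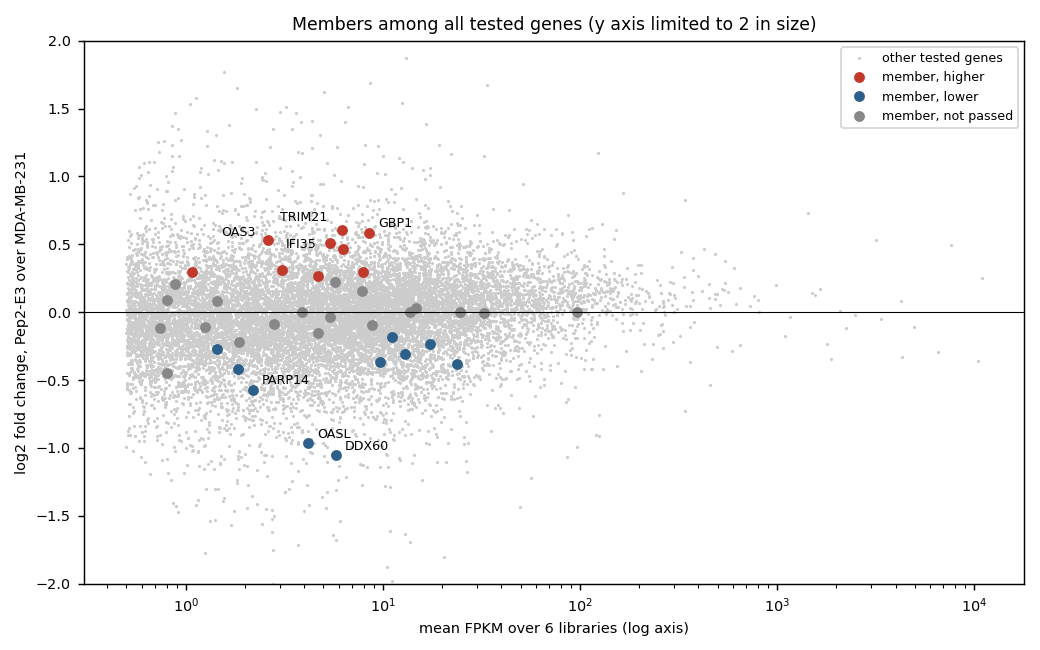
Log2 fold change against mean FPKM over the 6 libraries (log axis) for all 14235 tested genes, with the 38 interferon genes as large points (red higher, blue lower, dark grey not passed) and the other genes as light grey dots. The y axis stops at 2 in size and leaves out 9 genes. Most interferon genes lie among the bulk of genes of the same level, with DDX60 (-1.05) and OASL (-0.97) furthest from 0.

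Position on the chromosome was compared with the change of each gene through the 10 tested genes on each side, leaving out the interferon set. Over all other tested genes, the median log2 fold change of such neighbours ran from -0.26 at the 5th percentile to 0.15 at the 95th. The OAS1, OAS3 and OAS2 cluster (GRCh38, chromosome 12, 112906777 to 113011723) lay among genes that were lower in Pep2-E3: 10 of its 20 neighbours fell and 1 rose, with a median of -0.25. OAS3, at 0.54, lay above the highest of these neighbours (0.47). OASL (ENSG00000135114, chromosome 12, 121019111 to 121039242) also lay among genes that were lower, with 10 of 20 neighbours lower, 1 higher and a median of -0.26, and at -0.97 it lay below the lowest of them (-0.50). IFI27 (ENSG00000165949, chromosome 14, 94104836 to 94116698) rose among neighbours of which 14 of 20 fell and 1 rose (median -0.38). The nearest genes on both sides of IFI27 are its paralogues IFI27L1 (-0.37 ± 0.06) and IFI27L2 (-0.32 ± 0.07), and both fell. By contrast, the neighbours of DDX60 (ENSG00000137628, chromosome 4, 168216293 to 168318807) had a median of -0.05, those of the IFIT genes -0.02 and those of PARP9, DTX3L and PARP14 -0.08. GBP1 (ENSG00000117228, chromosome 1, 89052319 to 89065360) and TRIM21 (ENSG00000132109, chromosome 11, 4384897 to 4393696) rose among neighbours with medians of 0.14 and 0.13, of which 7 and 6 of 20 rose. The neighbours of GBP1 include GBP3 (higher) and GBP2 (lower), interferon-induced genes outside the set that was left out. The part of position in any of these differences was not tested.

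**Figure D4:**
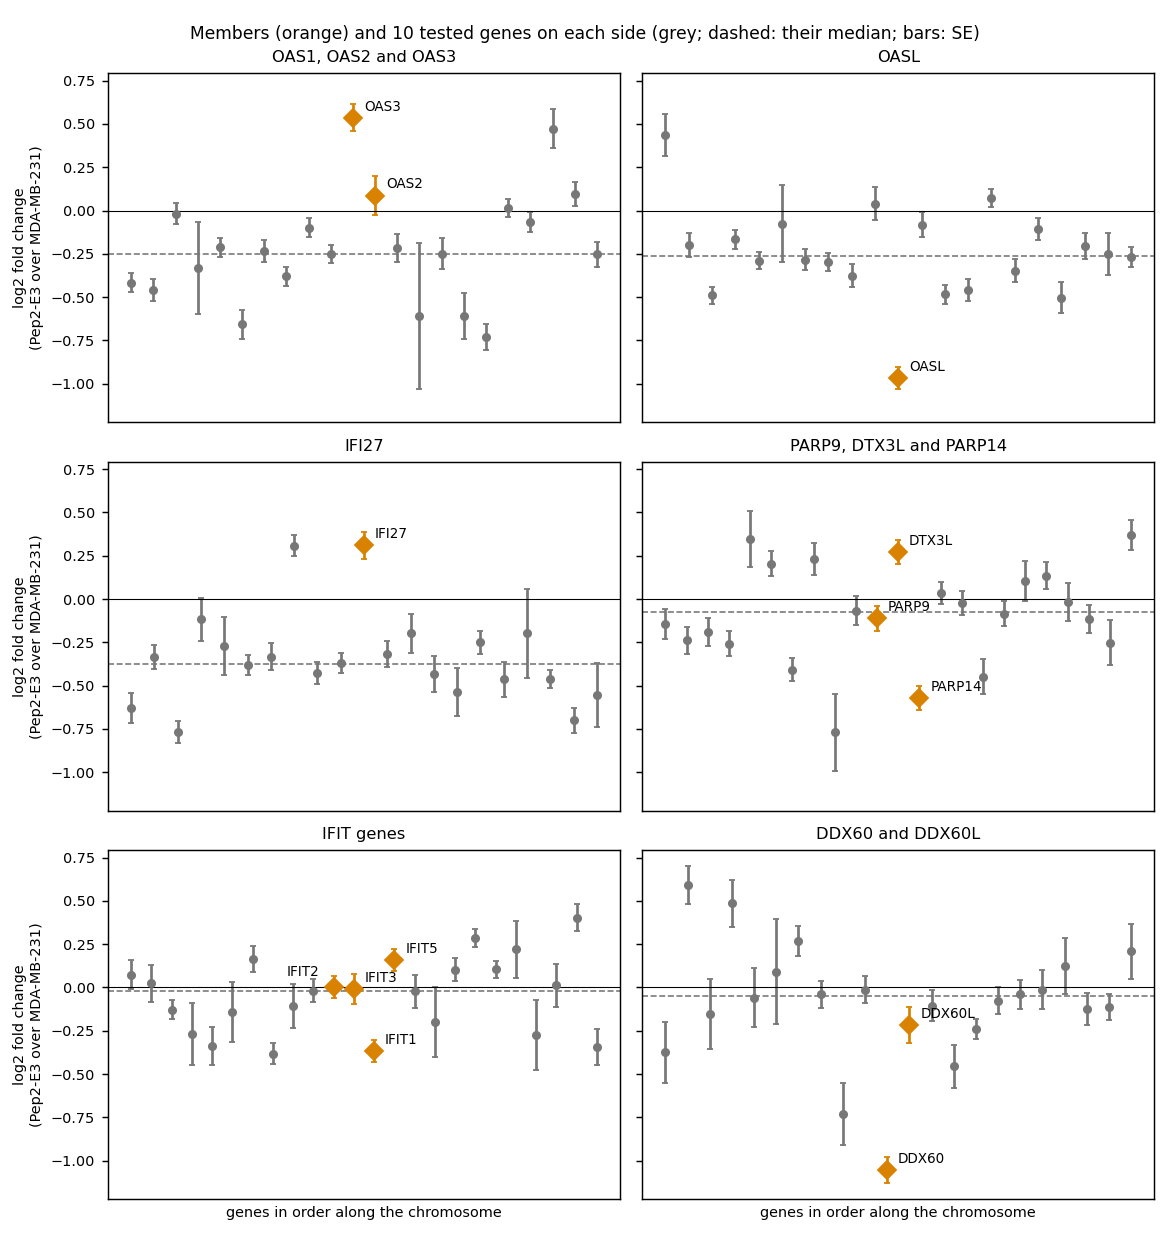
Log2 fold change (Pep2-E3 over MDA-MB-231, bars SE) of interferon genes (orange diamonds) and of the 10 tested genes on each side (grey points), in order along the chromosome, at 6 loci, with dashed lines at the neighbours' median. OAS3 and IFI27 lie above neighbours with medians of -0.25 and -0.38, and OASL (-0.97) and DDX60 (-1.05) lie below all of their plotted neighbours.

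The response element was found in genes of every outcome. Of tested genes with a listed promoter, the response element core was present in 5 of 9 that rose, 5 of 7 that fell and 10 of 14 that did not pass. The 20 tested genes with it ran from -1.05 to 0.61 in log2 fold change with a median of -0.05, and the 10 without it from -0.31 to 0.51 with a median of 0.12. Among the printed promoters, DDX60 and OAS3 each hold 2 matches on the gene's own strand, at -88 and -53 in DDX60 and at -143 and -12 in OAS3, counted at the first base before the start site as -1. The gamma-activated site core TTCNNNGAA, which reads the same on both strands, was found in a promoter of 10 of 37 genes (27.03%), against 9.376% of all symbols, and in BST2, IFI27 and MX1 it overlaps a match of the response element core. No promoter is listed for IFNAR2, IRF2, IRF3, IRF7, DHX58, OAS2, OASL, IFIT2, USP18 and MX2. A match is a description of letters, not evidence of binding in these cells.

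**Figure D5:**
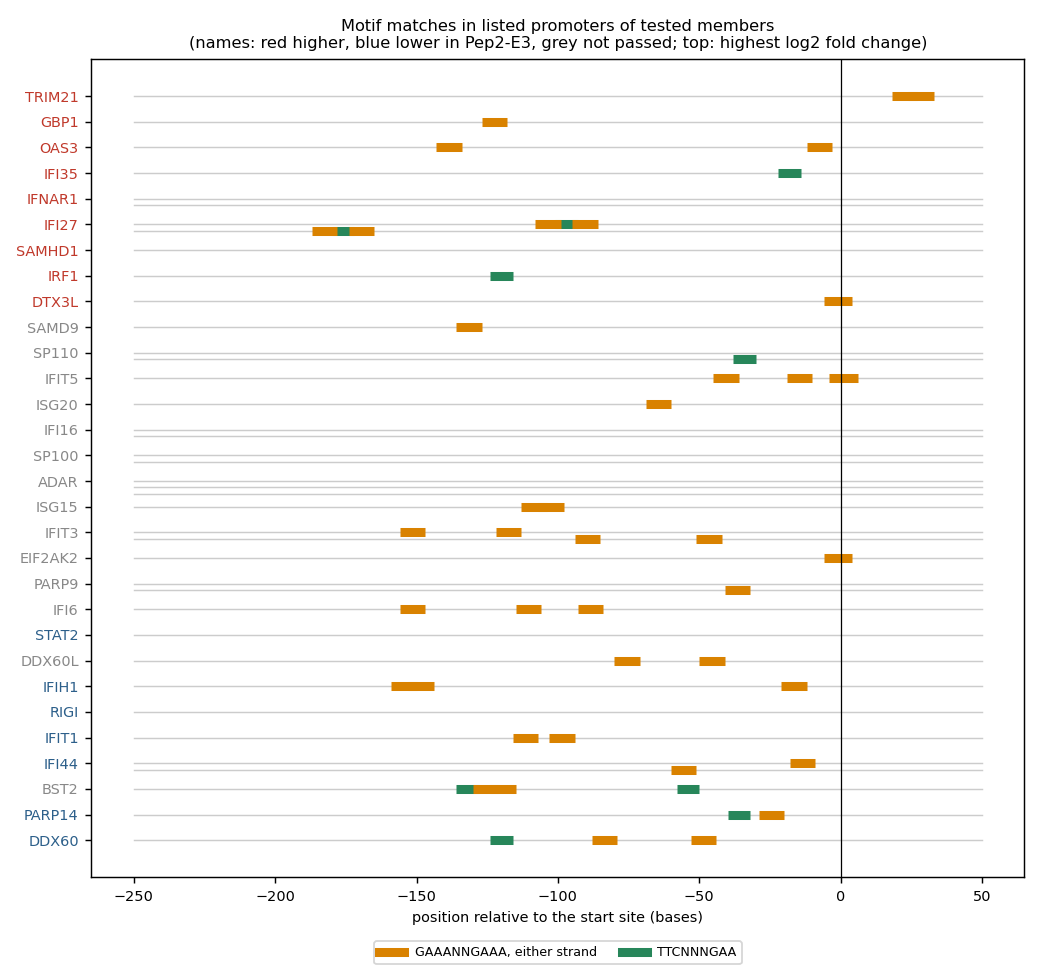
Positions of the response element core (either strand, orange) and TTCNNNGAA (green) relative to the start site in the listed promoters of tested genes, 1 grey line per promoter, ordered from the highest log2 fold change at the top to the lowest. Genes with matches occur from TRIM21 (0.61) at the top to DDX60 (-1.05) at the bottom.

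The rest of the pathway was followed through 98 genes on companion lists, of which 64 were tested. Of these, 8 were higher and 15 lower (35.9% called, with a median log2 fold change of 0.03), near the 30.8% called over all tested genes (median -0.02). The receptor's kinases JAK1 and TYK2 did not pass (0.04 ± 0.07 for JAK1 and 0.06 ± 0.06 for TYK2). Of 12 sensing genes, CGAS, the cytosolic DNA sensor, and its cofactor PQBP1 rose and the adaptor TRAF3 fell. CGAS had 19.4, 23.9 and 27.1 FPKM in Pep2-E3 and 16.5, 16.2 and 15.7 in MDA-MB-231 (0.50 ± 0.11, adjusted p = 0.0173), while the adaptors MAVS (0.18 ± 0.06, adjusted p = 0.0574) and STING1 (-0.13 ± 0.08) did not pass.

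Of 8 feedback inhibitors, SOCS3 and TNFAIP3 rose, and the deubiquitinase CYLD and the phosphatases PTPN1 and PTPN11 fell. CYLD had 2.60, 2.84 and 3.03 FPKM in Pep2-E3 and 4.54, 3.90 and 4.35 in MDA-MB-231 (-0.46 ± 0.08, adjusted p = 0.00614). Of 37 further interferon-induced genes, 4 rose and 10 fell, beside 14.6% higher and 16.2% lower over all tested genes. The smallest p-values belonged to the ribonuclease N4BP1 (4.81 ± 0.0671 FPKM in Pep2-E3 and 7.31 ± 0.109 in MDA-MB-231), the ADP-ribosyltransferase PARP10 (2.02 ± 0.0673 in Pep2-E3 and 3.37 ± 0.0508 in MDA-MB-231), the aminopeptidase LAP3 (17.3 ± 0.548 in Pep2-E3 and 23.5 ± 0.614 in MDA-MB-231) and the membrane protein IFITM3, which blocks viral fusion (79.9 ± 2.09 in Pep2-E3 and 99.7 ± 1.57 in MDA-MB-231; SD, n = 3 each). Of the exon bases of IFITM3, 21.3% overlap AC136475.5 on the opposite strand. All 4 genes fell, with limma adjusted p of 0.00113, 0.00165, 0.00172 and 0.00267 in that order. Neighbours were taken as 20 tested genes per site, the gene itself counted and the interferon set left out. At N4BP1 15 fell and at LAP3 16 (medians -0.44 and -0.49), against 8 at PARP10 and 5 at IFITM3 (-0.18 and -0.14). For the sensing and feedback genes that fell, 15 fell at TRAF3, 10 at CYLD, 10 at PTPN11 and 5 at PTPN1 (medians -0.46, -0.36, -0.25 and -0.10). The part of position was not tested. The chemokines CXCL10, CXCL11 and CCL5 and the interferons IFNK and IFNL1 lay under the filter, with IFNK at 0 in 4 libraries and IFNL1 in 5, and the other 7 interferons on the list were not analysed here.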

How the data were processed

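The authors deposited 1 table per library with Ensembl gene identifiers and FPKM values, per the file headers. Named in the submitters' processing notes are HTSeq (0.6.0), Bowtie2 (2.2.3) and HISAT2 (2), with no roles. The build there is mm8, a mouse build, although all 30099 identifiers are human genes of GENCODE release 29 (GRCh38), whose coordinates are used. FPKM times union exon length and library total gave whole fragments, within 0.001, for 100% of 180594 values. Per the labels' protocols, Trizol-extracted RNA went into NEBNext Ultra libraries, in which strand is not marked.

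The planned test for FPKM was limma-trend (limma 3.58.1, R 4.3.3) on log2(FPKM + 1), keeping genes that average 0.5 FPKM or more, with group as the only term and Benjamini-Hochberg adjustment at 0.05. It was tested on simulated data. Alternatives changed the pseudocount, filter, scaling, test, replicate block, GC and length correction, or left out a library. The genes, companion lists and motifs were chosen with earlier results of these data known. Values per library are given for those of the 47 genes that passed or had a log2 fold change of at least 0.3 in size, and for others described singly. Of each companion list, up to 4 called genes with the smallest p are named, and others were added for their roles. Some companion genes are not reported here.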

Additional observations from a re-analysis of the deposited data

How the results depend on the processing

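Every direction of the 19 called genes and of BST2 was kept under the 18 alternatives where it could be fitted. Calls of IFNAR1, RIGI, DDX60, OAS3, OASL, IFIT1, GBP1, SAMHD1, TRIM21, PARP14, IFI35 and IFI44 held in all 18. The highest adjusted p was 0.218 for STAT2, 0.146 for IRF1, 0.115 for IFIH1, 0.0953 for DTX3L, 0.0837 for IFI27, 0.0647 for DHX58 and 0.0632 for IRF3, and the causes were not tested. Leaving out 1 library gave 6 to 10 interferon genes higher and 6 to 9 lower, with 6 lower without MDA-MB-231 replicate 3. It gave 1185 to 2302 of all genes higher and 1289 to 2555 lower, with 2 to 8 companion genes higher and 10 to 17 lower. Of all genes, 1284 were higher and 1415 lower without MDA-MB-231 replicate 1, 1185 and 1289 without replicate 2, and 1365 and 1528 without replicate 3. Companion genes called higher, 8 with all libraries, were 4 without Pep2-E3 replicate 2, and 3, 2 and 4 without MDA-MB-231 replicates 1, 2 and 3. They were 13 with limma-voom, 16 with limma-voom on genes of at least 10 fragments, and 17 with the GC and length correction. With that correction 12 of 38 interferon genes were higher and 10 lower, beside 2836 higher and 2561 lower of all 14235 genes.

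Same-numbered libraries of the groups showed no shared deviation, with correlations of -0.04, 0.04 and -0.06. These values cannot tell whether such libraries were prepared together, which no label states. With the replicate block, 1364 of all genes were higher and 1602 lower, 8 interferon genes were higher and 8 lower (the calls of IFIH1, IRF1 and STAT2 were lost), and 5 companion genes were higher. With the GC and length correction and the replicate block together, 13 companion genes were higher. Scaling moved the median of all genes by less than 0.1 on the log2 scale. With upper-quartile factors 10 of 38 interferon genes were higher and 7 lower, beside 2203 higher and 1771 lower of all 14235 genes. With no filter 7 of 46 interferon genes were higher and 7 lower, beside 1610 higher and 1805 lower of all 30099. Depth limits the 5 genes with a mean under 10 fragments.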

Other observations

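Some companion genes under the FPKM filter resembled MX1 in direction, and they are named here after their values were seen. BATF2, an interferon-induced transcription factor, had 0.512, 0.651 and 0.697 FPKM in Pep2-E3 and 0.194, 0.232 and 0.180 in MDA-MB-231. TLR3, the endosomal sensor of double-stranded RNA, had 0.303, 0.361 and 0.442 FPKM in Pep2-E3 and 0.172, 0.139 and 0.110 in MDA-MB-231. Neither gene overlapped between the groups. In limma-voom on genes with a mean of at least 10 fragments the log2 fold change was 1.57 ± 0.29 for BATF2 (SE, adjusted p = 0.00312) and 1.37 ± 0.27 for TLR3 (adjusted p = 0.00459).

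The factor IRF5 moved the other way, with 0.653, 0.608 and 0.586 FPKM in Pep2-E3 and 1.31, 1.39 and 1.59 in MDA-MB-231 (log2 fold change -0.59 ± 0.08 in limma's trend test, adjusted p = 0.00361). Among guanylate-binding proteins, GBP3 rose like GBP1, with 14.6 ± 0.111 FPKM in Pep2-E3 and 11.2 ± 0.857 in MDA-MB-231, whereas GBP2 fell, with 2.99 ± 0.116 FPKM in Pep2-E3 and 3.95 ± 0.357 in MDA-MB-231 (SD, n = 3 each; limma adjusted p = 0.00703 and 0.0196).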
